A study of Rattus norvegicus with 6 samples.

Results

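Expression of 5 genes of glucose uptake and glycolysis was followed in the spinal cord of adult female Sprague-Dawley rats (220 to 250 g) at 2 weeks after spinal cord injury. The genes were chosen by Ensembl rat gene ID: Slc2a1 (ENSRNOG00000007284), Hk2 (ENSRNOG00000006116), Gapdh (ENSRNOG00000018630), Pkm (ENSRNOG00000011329) and Ldha (ENSRNOG00000013009). All 5 were among the 22526 IDs measured, and all 5 were among the 19515 that passed the filter on low values. In 3 rats (A-DON) the lesion held a decellularized optic nerve scaffold, a nerve stripped of its cells, that carried Apt19S, an aptamer (a folded strand of nucleic acid selected for what it binds). The other 3 rats (DON) had the scaffold without the aptamer. Injury, scaffold, time and sex were thus shared by both groups, and no uninjured or unimplanted cord was compared. Rats had been assigned to the groups at random, and each rat gave 1 mRNA-seq library.

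GLUT1, the product of Slc2a1, is a facilitative glucose transporter. It is abundant in the endothelium of the blood-brain and blood-spinal cord barriers and is also found in glia. Hexokinase 2, the product of Hk2, phosphorylates glucose and so holds it in the cell at the first step of glycolysis. It is an inducible hexokinase, found among other cells in microglia and activated immune cells. Gapdh encodes the glyceraldehyde-3-phosphate dehydrogenase of the middle of the pathway, which is also widely used as a reference transcript. Pkm encodes the pyruvate kinases that make pyruvate, and Ldha encodes the lactate dehydrogenase subunit that favours the conversion of pyruvate to lactate. Several of these genes, Slc2a1, Hk2 and Ldha among them, are textbook targets of hypoxia-inducible factor.

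Sequence upstream of 3 of the genes is given here because Slc2a1 and Hk2 were the members that fell in A-DON cords, while Ldha, a member of the same textbook target set, did not pass the test. Each run is the 250 bases before the annotated gene start, read 5′ to 3′ on the gene's own strand, from RefSeq on the GRCr8 build. Expression had been mapped on an older build, rn6, so these positions do not apply to the expression files. Capitals mark ACGTG, a form of the core of the hypoxia-inducible factor site, and its reverse complement CACGT. The other form of the core, GCGTG, was not searched, so the counts below are not counts of all core matches.
Slc2a1: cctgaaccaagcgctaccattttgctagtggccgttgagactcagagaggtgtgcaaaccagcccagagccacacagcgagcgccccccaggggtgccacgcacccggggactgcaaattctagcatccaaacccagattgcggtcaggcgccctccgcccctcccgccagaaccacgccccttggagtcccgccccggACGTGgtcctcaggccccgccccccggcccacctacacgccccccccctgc
Hk2: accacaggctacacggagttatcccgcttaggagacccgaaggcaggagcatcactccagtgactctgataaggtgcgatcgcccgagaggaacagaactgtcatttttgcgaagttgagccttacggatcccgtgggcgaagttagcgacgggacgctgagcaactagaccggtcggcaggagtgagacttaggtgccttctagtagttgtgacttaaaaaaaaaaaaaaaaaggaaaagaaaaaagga
Ldha: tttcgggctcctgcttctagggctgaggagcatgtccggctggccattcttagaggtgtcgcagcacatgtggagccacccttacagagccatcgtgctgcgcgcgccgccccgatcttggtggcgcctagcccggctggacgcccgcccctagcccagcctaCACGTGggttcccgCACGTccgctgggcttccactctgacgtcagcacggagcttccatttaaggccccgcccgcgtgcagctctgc
The Slc2a1 window lies at chr5:138002272-138002521 on the plus strand, the Hk2 window at chr4:116841276-116841525 on the minus strand and the Ldha window at chr1:106507842-106508091 on the plus strand. On either strand, ACGTG was found 1 time upstream of Slc2a1, 0 times upstream of Hk2 and 3 times upstream of Ldha. Of the 3 matches upstream of Ldha, 2 overlap in the palindrome CACGTG, the E-box. The same search found 1 match upstream of Gapdh and 0 upstream of Pkm. Of all 33469 rat windows of this length, 16.6% held ACGTG on either strand and 5.59% held CACGTG. Slc2a1 and Hk2 also differed in base composition, with 68.4% and 49.6% G or C against a median of 51.2% over all windows. Gapdh, Pkm and Ldha had 63.6%, 63.2% and 66.4%, so Hk2 alone was below that median. The GC box GGGCGG, searched on both strands, was found 3 times upstream of Slc2a1, 3 times upstream of Ldha, 1 time upstream of Pkm and 0 times upstream of Hk2 and Gapdh, and 30.5% of all windows held it. The TATA box TATAAA was found 1 time, upstream of Gapdh, and 12.9% of all windows held it. Because the Hk2 window held none of the 4 motifs searched, the members that fell shared none of them in these windows. Sequence outside the 250 bases was not searched, and the part of any motif in the changes was not tested.

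The uptake gene Slc2a1 and the entry-step gene Hk2 fell in A-DON cords relative to DON cords, while the changes of Gapdh, Pkm and Ldha, the genes of the later steps, did not pass the test. In bulk RNA, fewer cells of a type and less RNA per cell cannot be told apart. Levels are given as normalized counts, which are reads per gene divided by a size factor for the library. They are compared between rats and not between genes, since gene length was not used. Libraries held 24961512 to 28911941 reads in A-DON and 29143139 to 31189687 in DON. Each of the 5 genes had over 500 reads in every library, and the counting error was at most 4.45% of a value.

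Slc2a1 had 1634, 2674 and 1591 normalized counts in A-DON replicates 1, 2 and 3, against 4890, 5215 and 5079 in DON replicates 1, 2 and 3. The groups did not overlap: the lowest DON value was 1.83 times the highest A-DON value. The mean was 1966 ± 614 in A-DON and 5061 ± 163 in DON (SD, n = 3 each). This is a level 2.65-fold lower in A-DON (95% interval 1.83 to 3.83), or a log2 fold change of -1.41 (standard error 0.22), and the limma p adjusted over all tested genes was 0.012. All 3 A-DON rats showed the direction.

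Hk2, which acts on the glucose that the transporter brings in, followed the same direction. It had 550.7, 1409 and 500.3 normalized counts in A-DON replicates 1, 2 and 3, against 2784, 2800 and 2461 in DON replicates 1, 2 and 3. Again the groups did not overlap, and the lowest DON value was 1.75 times the highest A-DON value. The mean was 820 ± 511 in A-DON and 2682 ± 191 in DON (SD, n = 3 each). The level was 3.67-fold lower in A-DON (95% interval 1.86 to 7.21), a log2 fold change of -1.87 (standard error 0.40; limma adjusted p = 0.021), and again every A-DON rat showed the direction.

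**Figure D1:**
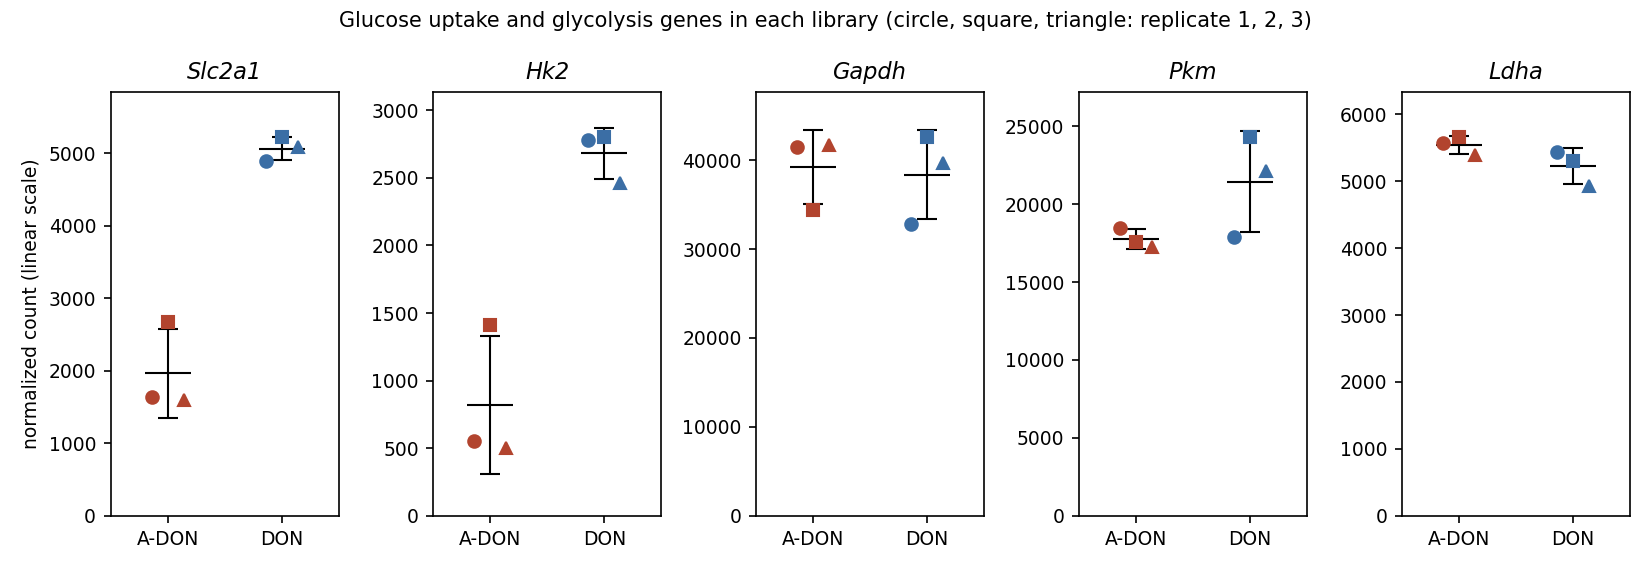
Normalized counts of the 5 genes, on linear axes that start at 0, in the 3 A-DON libraries (red, left) and the 3 DON libraries (blue, right), with the group mean and SD in black. For Slc2a1 and Hk2 the A-DON points lie below all DON points and A-DON replicate 2 (square) lies highest within its group, whereas for Gapdh, Pkm and Ldha the groups overlap.

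A-DON replicate 2 stood between the groups for both genes. It held 52.8% of the DON mean for Slc2a1 and 52.5% for Hk2, whereas the mean of A-DON replicates 1 and 3 was at 31.9% and 19.6% of the DON mean. Its Hk2 level was 2.68 times that of the other A-DON rats and its Slc2a1 level 1.66 times. Within DON the spread of both genes was small, with log2 SDs of 0.05 for Slc2a1 and 0.11 for Hk2, against 0.42 and 0.82 in A-DON. When this library was left out, the log2 fold changes were -1.65 for Slc2a1 and -2.35 for Hk2, with limma adjusted p of 0.00068 and 0.00062. The Hk2 level was then 5.09-fold lower in A-DON. Because this library lay nearest to DON for both genes, leaving it out had to enlarge both changes. The smaller p values are therefore no added support. In that fit 9286 of 19515 tested genes passed, against 6930 with all rats.

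The calls depended on which rats were kept. Without A-DON replicate 1 or 3, Slc2a1 had log2 fold changes of -1.29 and -1.27 with limma adjusted p of 0.060 and 0.063, and it kept its call without any single DON rat. Hk2 lost its call without any single rat other than A-DON replicate 2. Its limma adjusted p was 0.082 when A-DON replicate 1 was left out and 0.081 when A-DON replicate 3 was, and it was 0.056, 0.054 and 0.064 when DON replicates 1, 2 and 3 were. Its log2 fold change in these 5 fits lay between -1.93 and -1.60, and the 95% interval stayed below 0 in each. Over the whole table, fewer genes passed in each of the same fits, but to an unequal degree. Of 19515 genes, 6930 passed with all rats, and 35 and 12 when A-DON replicate 1 or 3 was left out. Dropping DON replicate 3 left 1552 genes past the threshold. The fall was smallest when DON replicate 1 or 2 was dropped, with 3890 and 3930 genes still passing. These fits had fewer rats. Those without A-DON replicate 1 or 3 kept replicate 2, which was intermediate for Slc2a1 and Hk2, as 1 of 2 A-DON libraries. The cause of the lost calls was not tested.

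**Figure D2:**
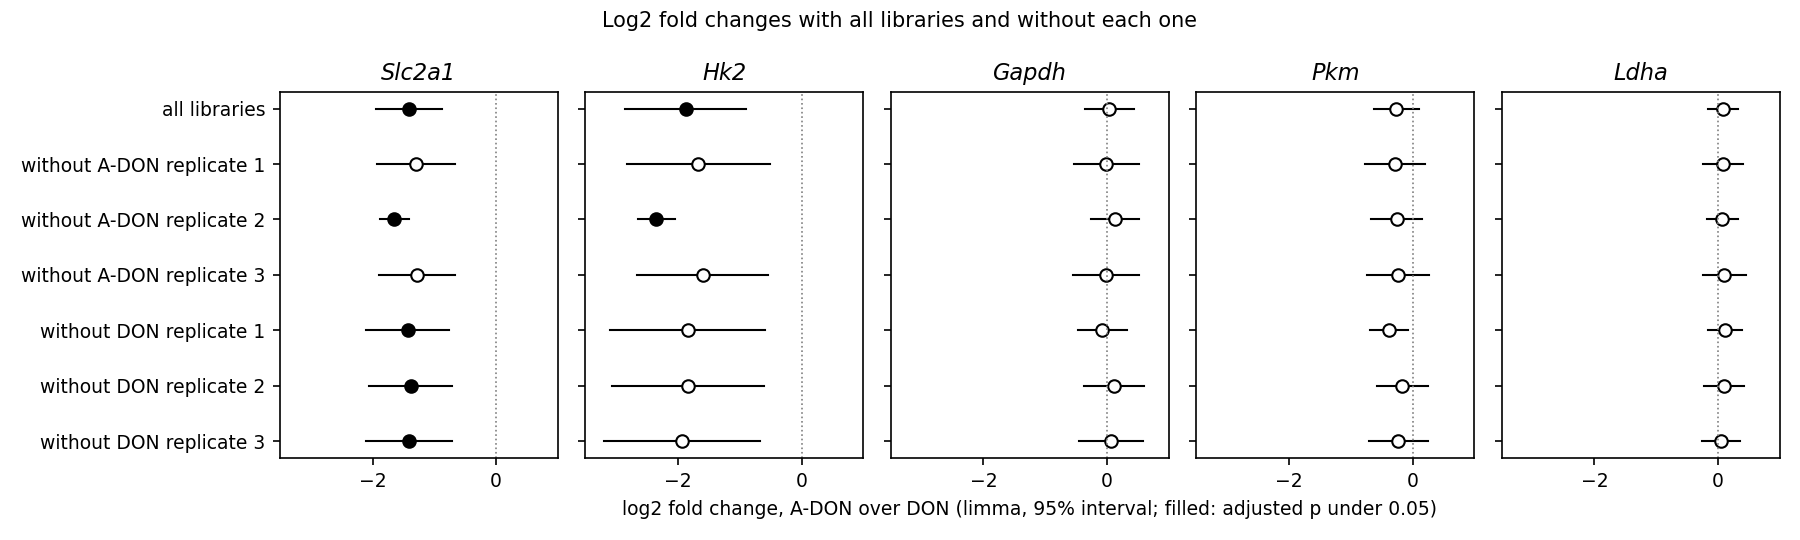
Log2 fold change of A-DON over DON with its 95% interval (limma) for each gene, with all libraries and without each library in turn, where filled points have an adjusted p under 0.05. The intervals of Slc2a1 and Hk2 lie below 0 in every fit shown and are narrowest without A-DON replicate 2, while those of Gapdh and Ldha include 0 in every fit shown. The interval of Pkm includes 0 in every fit shown except that without DON replicate 1, where it lies below 0.

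Gapdh had 41522, 34432 and 41675 normalized counts in A-DON replicates 1, 2 and 3, against 32791, 42562 and 39725 in DON replicates 1, 2 and 3. High and low rats were found in both groups, so the values overlapped. The estimated log2 fold change, 0.03 (standard error 0.16), had a 95% interval of -0.36 to 0.43, that is, between 0.778-fold and 1.35-fold (limma adjusted p = 0.88). The sign turned negative without A-DON replicate 1 (-0.0095) or 3 (-0.012) or DON replicate 1 (-0.074).

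Pkm had 18498, 17551 and 17266 normalized counts in A-DON replicates 1, 2 and 3, against 17918, 24288 and 22121 in DON replicates 1, 2 and 3. DON replicates 2 and 3 were above every A-DON rat, and DON replicate 1 lay within the A-DON range. The estimated log2 fold change, -0.26 (standard error 0.15), had a 95% interval of -0.63 to 0.11, or 0.648-fold to 1.08-fold (limma adjusted p = 0.21). Without DON replicate 1 the interval was -0.70 to -0.072 and left out 0, though the limma adjusted p was 0.077. Pkm has alternative exon forms for adult and proliferating tissue, which a count per gene does not separate.

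Ldha was the least variable of the 5. It had 5579, 5656 and 5388 normalized counts in A-DON replicates 1, 2 and 3, against 5444, 5308 and 4930 in DON replicates 1, 2 and 3. The groups overlapped, and the highest library was 1.15 times the lowest. The estimated log2 fold change was 0.09 (standard error 0.10), and its 95% interval of 0.896-fold to 1.26-fold leaves out a change as large as that of Slc2a1 or Hk2 (limma adjusted p = 0.52). Over the 6 libraries 0.733% of tested genes had a smaller log2 SD than Ldha, against 10.4% for Gapdh, 16.8% for Pkm, 64.5% for Slc2a1 and 77.1% for Hk2. Among the 4333 genes at or above the mean log2 level of Hk2 these shares were higher, at 1.82% for Ldha, 19.7% for Gapdh, 29.4% for Pkm, 81.9% for Slc2a1 and 90.4% for Hk2.

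The RefSeq gene table of the rat lists 81 pseudogene symbols for Gapdh, 30 for Ldha and 19 for Pkm, and 0 for Hk2 and Slc2a1. How reads that fit a gene and its copies were counted is not given in the sources used here. Counts of Gapdh, Pkm and Ldha are therefore given as uncertain, and the part of the copies in them was not tested.

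Among all tested genes, 35.5% passed the test in either direction and 16.6% passed it as lower in A-DON. The 2 of 5 members that passed are thus near the share over all genes, and the count is no result about the members. Of the genes at or above the mean log2 level of Hk2, the lowest of the members, 45.9% passed. A-DON values lay entirely below DON values in 27.9% of tested genes, as they did in Slc2a1 and Hk2. The median log2 fold change was -0.26 over the 5 members and -0.02 over all tested genes. A more negative log2 fold change than that of Hk2 was found in 9.33% of tested genes and than that of Slc2a1 in 14.0%. In size, the change of Gapdh exceeded that of 3.25% of tested genes, that of Ldha 7.89% and that of Pkm 23.6%.

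**Figure D3:**
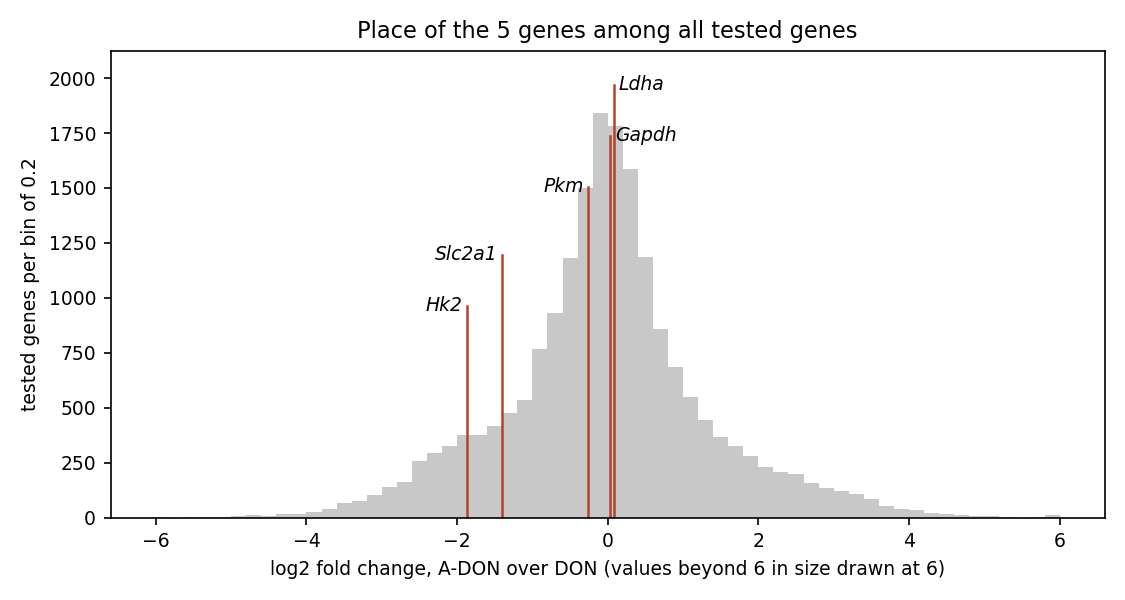
Log2 fold changes of A-DON over DON for all tested genes (grey, genes per bin of 0.2) with the 5 members marked by red lines, whose heights only separate the names. Hk2 at -1.87 and Slc2a1 at -1.41 lie on the lower side of the distribution, and Pkm, Gapdh and Ldha lie near its centre.

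Ratios of members within a library, which a library's scaling factor does not move, asked whether the members changed unequally. For 10 pairs an exact two-sided permutation test over the 3 and 3 rats was run, for which 0.1 is the smallest possible p, so no pair could pass a threshold of 0.05. The ratio of Hk2 to Gapdh averaged -5.74 ± 0.98 on the log2 scale in A-DON and -3.83 ± 0.24 in DON (SD, n = 3 each; exact permutation p = 0.1, 0.14 adjusted over the 10 pairs). This is a ratio 3.75-fold lower in A-DON. Slc2a1 to Gapdh was 2.71-fold lower in A-DON, with log2 ratios of -4.35 ± 0.58 in A-DON and -2.91 ± 0.15 in DON (SD, n = 3 each; exact permutation p = 0.1, 0.14 adjusted). All 6 ratios of Slc2a1 or Hk2 to Gapdh, Pkm or Ldha were lower in every A-DON rat than in every DON rat, with differences of -1.96 to -1.15 on the log2 scale. These 6 ratios share their genes and are not separate from the single-gene results. As single genes, 27.9% of tested genes lay entirely lower in A-DON, and no such share was computed for ratios of other genes. Relative to Ldha, Hk2 was 3.89-fold lower and Slc2a1 2.81-fold lower in A-DON.

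**Figure D4:**
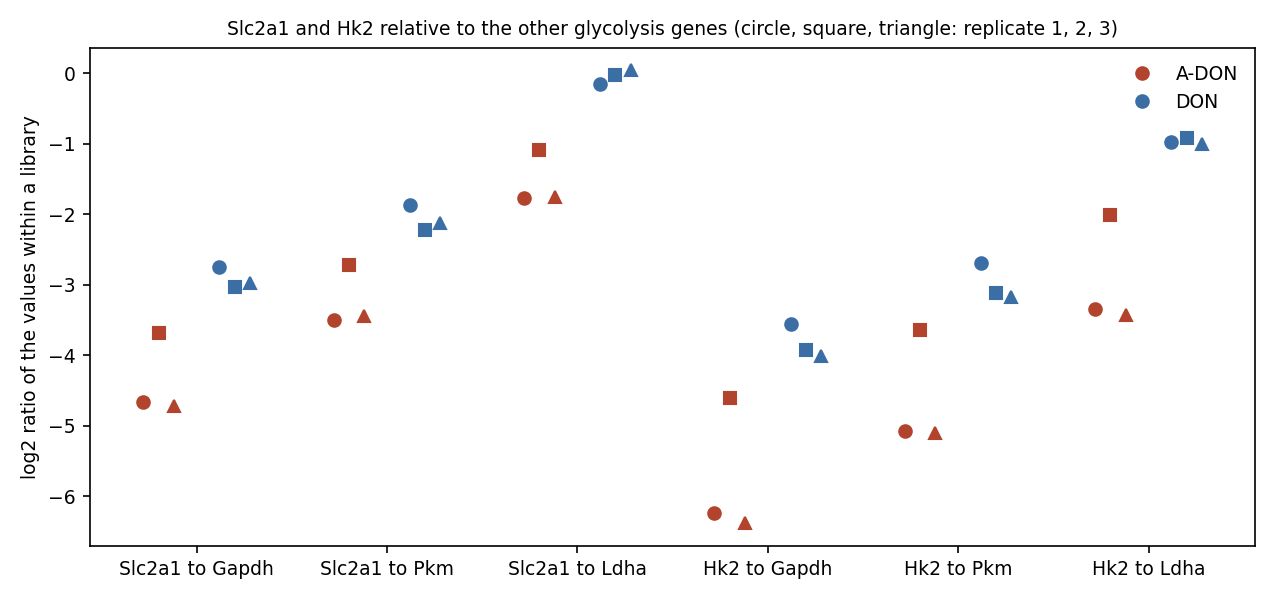
Log2 ratio of Slc2a1 or Hk2 to Gapdh, Pkm or Ldha within each library, A-DON in red on the left and DON in blue on the right of each pair. In all 6 pairs the A-DON points lie below the DON points, and A-DON replicate 2 (square) lies nearest to DON.

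Slc2a1 and Hk2 did not keep the same ratio in every rat. The log2 ratio of Slc2a1 to Hk2 was 1.57, 0.92 and 1.67 in A-DON replicates 1, 2 and 3, against 0.81, 0.90 and 1.04 in DON replicates 1, 2 and 3. A-DON replicate 2 lay within the DON range, and the other A-DON rats lay above it. The group difference was 0.47 (standard error 0.24; exact permutation p = 0.2, 0.22 adjusted), and with 3 rats per group this test could not have shown unequal falls. Among the later steps, the ratio of Gapdh to Pkm was higher in every A-DON rat than in every DON rat, by 0.29 on the log2 scale (means 1.14 ± 0.15 in A-DON and 0.84 ± 0.03 in DON, SD, n = 3 each; exact permutation p = 0.1, 0.14 adjusted). Gapdh to Ldha and Pkm to Ldha overlapped between the groups, with differences of -0.05 and -0.35 and exact permutation p of 0.6 and 0.2.

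Taking the 5 genes as 1 pool, they held 0.237 ± 0.0072% of the reads in A-DON and 0.248 ± 0.031% in DON (SD, n = 3 each), and the groups overlapped. Most of the pool was Gapdh, with 0.142 ± 0.012% of reads in A-DON and 0.131 ± 0.019% in DON, while Hk2 held 0.0030 ± 0.0019% in A-DON and 0.0091 ± 0.00068% in DON.

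Likeness of pattern was measured as the root mean square difference of log2 values over the 6 libraries, each gene centred on its own mean. By this measure Hk2 was the member nearest to Slc2a1, at 0.34, yet 1069 of 14701 other genes, counting those that averaged 50 or more, were nearer to Slc2a1, and 563 were nearer to Hk2 than Slc2a1 was. Among the members, Gapdh and Pkm were nearest to each other, at 0.17. Yet 1614 other genes were nearer to Gapdh than Pkm was, and 1067 were nearer to Pkm than Gapdh was. Taking at most 2 genes higher and 2 lower in A-DON, the nearest to any member were ENSRNOG00000005052, 0.022 from Ldha, ENSRNOG00000030963, 0.025 from Gapdh, and ENSRNOG00000028235 and ENSRNOG00000019346, 0.029 and 0.038 from Pkm. The files used here pair no name with these 4 IDs. None of them passed the test (limma adjusted p of 0.17 to 0.88), so higher and lower give only the sign of the estimate. The genes nearest to Slc2a1 and Hk2, at 0.060 and 0.071, were not among them.

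Other genes of glycolysis, lactate transport and the hypoxia response, and markers of endothelium, glia and immune cells, could not be matched, because the expression table gives Ensembl IDs and 0 of them were found in the reference gene table. The labelled tissue was therefore not checked against its markers.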

How the data were processed

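Stranded mRNA-seq libraries from the spinal cord of 6 rats (3 A-DON, 3 DON) had been run on a NovaSeq sequencer (per the labels' protocols). Build rn6 and the programs StringTie 1.3.1c, STAR 2.5.3a and FastQC 0.11.2 stand in the submitters' processing notes, while how reads were counted is not stated there. In the authors' deposited table there are values on a log2 scale from 0 to 19.8 for 22526 Ensembl IDs. Undoing the log2 and subtracting 1 gave whole multiples of a step for 100% of values in each library (tolerance 0.05 reads), so a deposited log2 value is taken as log2(reads / size factor + 1). A count of 0 allows up to 3 reads. Such limits and the counting errors cover counting error only. Replicates are separate rats.

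The whole table was fitted with limma 3.58.1 (R 4.3.3, statmod 1.5.0) on the deposited log2 values, with trended, robust moderation and no covariate, keeping genes that reached a normalized count of 1 in 3 or more libraries. P-values were adjusted by Benjamini-Hochberg over the 19515 genes tested, with a threshold of 0.05. The 1 added before the log makes fold changes slightly too small, by little at these levels. Ratios and promoter windows were computed in Python 3.11.15 (numpy 2.4.6, pandas 2.3.3, scipy 1.17.1). RefSeq windows were matched by symbol for all 5 genes, leaving out the 50 bases after the start. The members, the 14 symbol lists and the motifs were chosen with earlier results of these data known. The naming rule took the 5 members and the genes nearest to any of them, at most 2 higher and 2 lower in A-DON. Alternatives were other scalings, filters, pseudocounts, moderation, voom on the recovered reads, sample weights, leaving out each library, and a block for the replicate number.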

Additional observations from a re-analysis of the deposited data

How the results depend on the processing

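The log2 fold changes of Slc2a1 and Hk2 stayed negative under all 17 alternatives, but many of these could not change the sign. The filters, the moderation and the replicate block leave the estimate as it was. Since the groups did not overlap for these genes, leaving out a library could not reverse it either. Apart from leaving out a library, both stayed past the threshold under every setting but the replicate block, with log2 fold changes of -1.65 to -1.31 and -2.32 to -1.78. With the replicate number as a block their values were -1.41 and -1.87, with limma adjusted p of 0.066 for both, 0 members passed, and 0 genes passed in all (7601 at an unadjusted p under 0.05). Deviations from the group means had r = -0.17, -0.24 and -0.08 across genes between same-numbered rats. This check is weak, since deviations within a group sum to 0 and no values for differently numbered rats are given. The number was not taken to pair rats because no source used here states a pairing, and the check does not settle it. Sample weights, which were 0.24 for A-DON replicate 2 and 6.99 for A-DON replicate 3, raised the genes passing to 12414, against 6930 without weights, and brought Pkm past the threshold (log2 fold change -0.34, adjusted p = 0.021). The cause was not tested. Leaving out a library gave 12 to 9286 genes past the threshold and 0 to 2 members (0 without A-DON replicate 1 or 3, and 1, Slc2a1, without each single DON replicate). The log2 fold changes then ran from -1.65 to -1.27 for Slc2a1, -2.35 to -1.60 for Hk2, -0.074 to 0.13 for Gapdh, -0.38 to -0.16 for Pkm and 0.044 to 0.11 for Ldha. The difference of the Gapdh to Ldha ratio, -0.05, ran from -0.19 to 0.056 without a library and was 0.12 after quantile normalization. The other 9 ratios kept their direction in every setting run, but much of this was fixed beforehand. A library's scaling factor cancels in a ratio. For the 7 pairs whose groups did not overlap, leaving out a library could not reverse the direction. Quantile normalization raised the Gapdh log2 fold change to 0.21 and total-count scaling to 0.13, and neither passed. Median-of-ratios rescaling, already in the values, tests nothing. Counting error was at most 1.43% of a value for Gapdh, Pkm and Ldha, and their CV within a group was 2.5% to 15.1%.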
